A study of Mus musculus with 6 samples.

Results

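F-box proteins are the exchangeable substrate receptors of SCF ubiquitin ligases, complexes in which Skp1 joins the F-box protein to the scaffold Cul1 and the RING protein Rbx1. The F-box protein chooses the protein to be tagged with ubiquitin and so sent to the proteasome. The family is divided by the substrate-binding part, into Fbxl proteins with leucine-rich repeats, Fbxw proteins with WD40 repeats and Fbxo proteins with other domains. Skeletal muscle is known for atrogin-1 (Fbxo32), a muscle ligase that is induced in fasting, disuse and wasting by FoxO transcription factors.

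All probe sets whose only gene symbol begins with Fbxo, Fbxl or Fbxw followed by a number were taken, which gave 115 of 45037 probe sets, for 67 of 18193 named genes. There were 58 probe sets for 32 Fbxo genes, 24 for 17 Fbxl genes and 33 for 18 Fbxw genes. The rule used no measured value. One of the 67 symbols, Fbxl12os, is a transcript from the strand opposite Fbxl12 and not an F-box gene. A further 2 probe sets carry an F-box symbol together with another symbol and were left out, and Fbxo40 and Fbxl22 were not analysed here.

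The measurements came from muscle of 6 mice of the 129SvJ background, 3 labelled wild type (WT) and 3 labelled SIRT6 knockout (KO), each hybridized to 1 Affymetrix Mouse Genome 430 2.0 array. SIRT6 is a chromatin deacylase, and the design sets muscle RNA of knockout mice against that of wild-type mice. The labels do not name the muscle, the age of the mice or the construction of the knockout allele. Values are intensities on a linear scale, 1 for each probe set, meaning the short probes that together read 1 transcript. The p-values rest on the spread between these arrays, 1 per mouse, which limma draws toward a spread shared over all probe sets. No other replication enters them.

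Array medians lay between 10.8 and 15, and the hybridization controls of WT replicate 1 were 1.85 times those of WT replicate 2, against 0.978 to 1.01 times in the other 4 arrays. The myofibre list (Acta1, Ckm and the fast myosin genes among them) had all 10 members measured, and its summed intensity was 57099 to 94574.2 in WT and 60259.8 to 65318.3 in KO, so the tissue label held in every array. The brightest members carry this sum, so it does not read fibre type. Of the 10, 4 had a higher mean log2 value in KO and 6 a lower one. The slow-fibre gene Myh7 read 167.7, 313 and 87.2 in WT and 420.4, 1859.9 and 281.1 in KO. Tnnt1, also of slow fibres, read 82.6, 138.2 and 52.4 in WT and 167, 390.2 and 100.8 in KO. Both overlapped between the groups, and a part of fibre type in the results was not tested. Sirt6 had 1 named probe set, with a mean of 19.9 ± 4.24 in the WT arrays and 18.2 ± 4.45 in the KO arrays (SD, 3 arrays per group). Its position relative to the deletion is unknown, and it cannot serve to check the labels. Xist, the RNA of the inactive X chromosome, read 28.5 ± 3.54 and 1007 ± 253 at 1436936_s_at, and the Y-linked gene Eif2s3y 58.5 ± 16.8 and 2.63 ± 1.5 at 1417210_at. These levels part the mice exactly as the genotype labels do, so genotype and sex cannot be told apart in any result below. In bulk tissue, fewer cells of a type and less RNA per cell cannot be told apart either.

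With each gene read by its brightest probe set, the largest differences in the family were in Fbxo32, Fbxo31 and Fbxo30, ligase genes of muscle wasting. A dimmer probe set of Fbxl20, 1456378_s_at, had a larger log2 change (0.92) than any probe set of Fbxo30 (at most 0.74). Fbxo32 and Fbxo31 were high in KO replicates 2 and 3 and Fbxo30 in KO replicate 3, while KO replicate 1 lay near the WT arrays. Most other F-box genes differed little. No F-box probe set passed an adjusted p of 0.05 by limma over all 45037 probe sets (0 of 115, where 0.00888% of all probe sets passed, 0.00444% higher and 0.00444% lower), and the lowest adjusted p in the family was 0.532. At an unadjusted p under 0.05 there were 15 of the 115 (13%, against 8.56% of all probe sets), 9 higher in KO (background 3.57%) and 6 lower (background 4.99%). Of the 9, Fbxo32 gave 3 and Fbxo31 gave 2, so these are not separate genes. Counted once per gene by the brightest probe set, 3 of 67 were higher (background 3.54%) and 4 were lower (background 6.29%).

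The upstream sequences of Fbxo31, Fbxo30 and Fbxl20 are shown because these genes had large differences at more than 1 probe set. Each is the 250 bases before the annotated start, 5′ to 3′ on the gene's strand, from RefSeq on GRCm38.p6. Capitals mark a CCAAT box, searched as CCAAT and its reverse ATTGG. The Fbxo31 window lies at chr8:121578807-121579056 on the minus strand, the Fbxo30 window at chr10:11281337-11281586 on the plus strand and the Fbxl20 window at chr11:98149617-98149866 on the minus strand.
Fbxo31: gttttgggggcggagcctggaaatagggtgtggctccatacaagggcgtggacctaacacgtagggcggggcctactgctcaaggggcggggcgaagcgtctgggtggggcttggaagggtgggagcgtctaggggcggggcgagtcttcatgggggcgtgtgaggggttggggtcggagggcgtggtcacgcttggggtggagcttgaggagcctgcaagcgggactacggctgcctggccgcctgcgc
Fbxo30: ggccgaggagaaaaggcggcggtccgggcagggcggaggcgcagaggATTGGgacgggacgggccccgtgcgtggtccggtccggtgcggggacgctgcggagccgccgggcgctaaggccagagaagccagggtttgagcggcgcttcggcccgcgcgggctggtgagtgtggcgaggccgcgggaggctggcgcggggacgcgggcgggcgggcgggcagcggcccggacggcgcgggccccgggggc
Fbxl20: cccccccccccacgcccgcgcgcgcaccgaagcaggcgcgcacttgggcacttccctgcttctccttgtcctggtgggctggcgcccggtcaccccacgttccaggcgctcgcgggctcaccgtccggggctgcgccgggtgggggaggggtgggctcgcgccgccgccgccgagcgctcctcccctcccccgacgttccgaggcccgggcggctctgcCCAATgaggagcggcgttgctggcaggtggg

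All 3 windows are rich in G and C, at 68.0% for Fbxo31, 80.4% for Fbxo30 and 77.6% for Fbxl20, where the median was 58.4% over the family's windows and 52.4% over all 32851 windows. The family had 68 windows, for 49 of its 67 genes. The windows used here hold none for Fbxo32, so its promoter was not searched. The FoxO core GTAAACA (or TGTTTAC on the other strand) was in 0 of the 68, against 3.17% of all windows. The glucocorticoid receptor half-site AGAACA (or TGTTCT) was in 5 of the 68, or 7.35%, against 16.08% of all, and in none of the 3 printed. A CCAAT box was in 14 windows (20.59%, against 33.85%), among them Fbxo30 and Fbxl20, where it starts 203 and 31 bases before the gene. The letters TATAAA (or TTTATA) were in 0 of the 68, against 12.37% of all, and the E-box CACGTG, its own reverse, was in 3 (4.41%, against 6.02%) and in none of the 3 printed. These are matches of letters in short windows, and say nothing of whether a factor binds elsewhere.

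Fbxo32, atrogin-1, targets the myogenic factor MyoD and the translation initiation subunit eIF3f. Its probe set 1448747_at read 135.7, 75.9 and 55.5 in WT and 143.7, 1296.6 and 4078.5 in KO. All 3 KO values were above all 3 WT values, but KO replicate 1 exceeded WT replicate 1 by little, and KO replicate 3 was far above the rest. The fold was 9.51 with a 95% interval of 1.59 to 57.1 (limma adjusted p = 0.556). A fold here is taken on the log2(intensity + 16) scale, which understates changes of dim probe sets.

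The other 2 Fbxo32 probe sets gave the same picture. Probe set 1417522_at read 106, 79.8 and 62.3 in WT and 89.3, 1194.6 and 4141.4 in KO, so KO replicate 1 was inside the WT range, and the fold was 8.34 (interval 1.13 to 61.3, adjusted p = 0.573). Probe set 1435265_at read 94.9, 77.9 and 42.2 in WT and 135.2, 411.7 and 2272.3 in KO, with no overlap and a fold of 6.25 (interval 1.40 to 28, adjusted p = 0.562). With only the 22518 probe sets above the median level tested, Fbxo32 had the lowest adjusted p of the family, 0.0773 at 1448747_at and 0.0875 at 1435265_at, and still none of the 74 F-box probe sets kept passed (background 0.351%, with 0.0844% higher and 0.266% lower). It did pass once KO replicate 1 or KO replicate 3 was left out of the filtered test, when 8 and 3 F-box probe sets passed, against 6.06% and 1.44% of all probe sets tested. Of the 8, Fbxo30 1453136_at was above the filter level only in KO (WT mean 7.57), so its call is no support, and the other 7 were above it in both groups. In the filtered test of all 6 arrays, 11 of the 74 had an unadjusted p under 0.05, 9 higher (background 5.95%) and 2 lower (background 6.21%). The 9 came from Fbxo32, Fbxo31, Fbxo30, Fbxl20 and Fbxo38, so they are not separate genes. Fbxo30 1453136_at is among them and was above the filter level only in KO here too, so it is no support.

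Fbxo31 is known for the degradation of cyclin D1 after DNA damage and is one of the FoxO-dependent ligases of muscle. At 1428926_at it read 224.4, 273.4 and 185.1 in WT and 253.6, 559.4 and 1230.5 in KO, a fold of 2.40 (interval 1.03 to 5.61, adjusted p = 0.580). KO replicate 1 lay between WT replicates 1 and 2. At 1417969_at the values were 109.1, 106.5 and 80.5 in WT and 130.8, 249.7 and 462.9 in KO, with no overlap and a fold of 2.33 (interval 1.20 to 4.53, adjusted p = 0.552). Both probe sets thus had KO replicate 3 highest and KO replicate 2 next.

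Fbxo30, also called MUSA1, is a wasting ligase held down by BMP signalling. It read 46.7, 32.1 and 36.9 in WT and 39.4, 57.5 and 163 in KO at 1453137_at, its brightest probe set (fold 1.66, interval 0.837 to 3.29, adjusted p = 0.670). Only KO replicate 3 was far from the rest. The dimmer probe sets 1429441_at and 1453136_at had folds of 1.48 and 1.67, with KO replicate 3 at 72.2 and 54.2, and 1436550_at, where KO replicate 3 read 43.4 and the other KO arrays 14.7 and 14.3, had a fold of 1.08.

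Fbxo21, or SMART, the remaining FoxO-dependent F-box ligase of muscle, differed less between the groups. Its brightest probe set 1452828_at read 67.1, 59.6 and 24.3 in WT and 49.2, 79.8 and 66.2 in KO, with the groups overlapping (fold 1.27, interval 0.771 to 2.08). At 1451543_at the WT values 41.5, 35.3 and 29.2 were all below the KO values 42.9, 41.7 and 52.3, but only just, since KO replicate 2 and WT replicate 1 were nearly equal. Fbxo25, the closest relative of Fbxo32, read 46.3, 32.9 and 23.1 in WT and 25.8, 32.7 and 30.6 in KO, so its KO arrays lay inside the WT range.

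**Figure D1:**
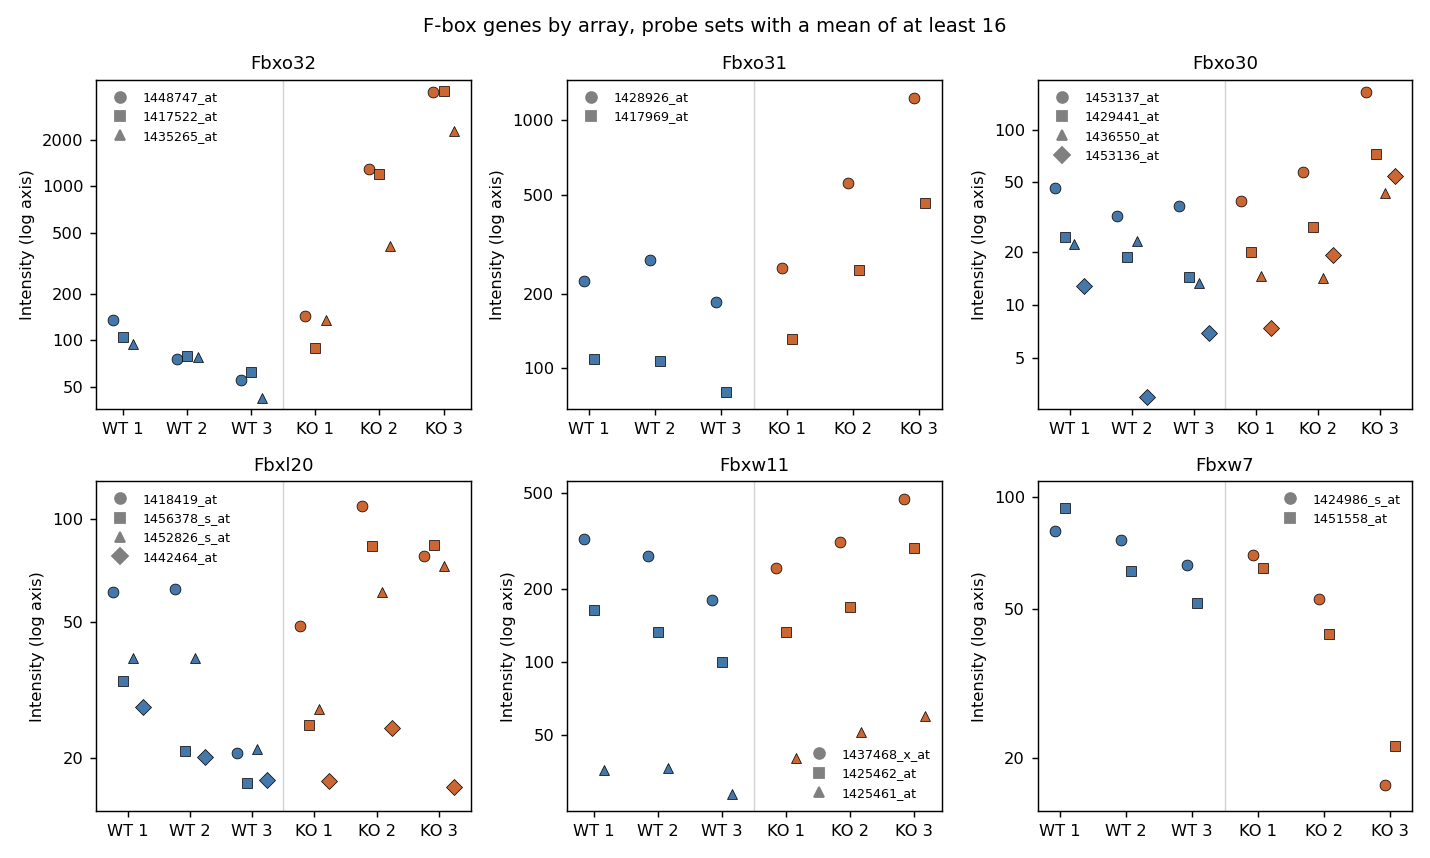
Intensity (log axis) of each probe set with a mean of at least 16 in the 3 WT (blue) and 3 KO (orange) arrays, for 6 F-box genes, 1 symbol shape per probe set. Fbxo32 reached 1296.6 and 4078.5 in KO replicates 2 and 3 and stayed at 55.5 to 143.7 in the other 4 arrays at 1448747_at, while Fbxw7 was lowest in KO replicate 3.

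Among the F-box proteins of the sugar-binding group, some of which recognise N-glycans on misfolded glycoproteins, Fbxo6 had the highest fold. It read 65, 66.8 and 51.7 in WT and 63, 96.6 and 152.1 in KO (fold 1.49, interval 0.947 to 2.34, adjusted p = 0.616). KO replicate 1 was inside the WT range and the other 2 KO arrays were above it. Its dim second probe set 1447671_x_at went the other way, at 16.7, 10.5 and 9.8 in WT and 3.6, 9.4 and 5.3 in KO. Fbxo6, Fbxo44 and Fbxo2 are neighbours in the genome, with no other protein-coding gene between them, but the last 2 were dim: Fbxo44 read 9.7, 13 and 10.2 in WT and 1, 7.2 and 3 in KO, and Fbxo2 read 0.8 to 9.4 in WT and 6.3 to 10.4 in KO. Fbxo27 and Fbxo17, the other neighbouring pair of this kind, overlapped between the groups, Fbxo27 reading 33.5, 52.7 and 36.3 in WT and 27.7, 38.1 and 26.9 in KO (fold 0.829, interval 0.620 to 1.11).

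Fbxo38, known for the turnover of PD-1 in T cells, read 19.2, 32.3 and 20.6 in WT and 26.8, 46.8 and 64.8 in KO, with KO replicate 1 below WT replicate 2 (fold 1.52, interval 0.994 to 2.31, adjusted p = 0.587). Fbxo42, which binds p53, was lower in every KO array, at 25.2, 30.7 and 33.5 against 39.4, 44.9 and 38 in WT. Its fold was 0.806 (interval 0.650 to 0.998, adjusted p = 0.582). The other 2 Fbxo42 probe sets were dimmer and overlapped between the groups.

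The remaining bright Fbxo genes overlapped between the groups. Fbxo28, a ligase for MYC, had a fold of 1.19 at its brightest probe set, and at the dimmer 1429158_at the KO values 32.8, 39.8 and 49.8 were above the WT values 32.1, 23.1 and 17.4. Fbxo11, a ligase for BCL6, had a fold of 1.16, and Fbxo9, which limits mTOR signalling through Tel2 and Tti1, 1.14. Fbxo3 (1.09), Fbxo34 (1.01), Fbxo36 (0.957), Fbxo22 (0.952), Fbxo45 (0.926), Fbxo8 (0.909) and Fbxo7 (0.868) completed the group. Of these Fbxo22 recruits the histone demethylase KDM4A, Fbxo45 acts at synapses and Fbxo7 is a parkinsonism gene with a part in mitophagy. For Fbxo7 the 3 WT arrays read 67.6, 50.1 and 47.6, and KO replicate 1, at 24.8, was well below the other KO arrays at 57.6 and 60.5.

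**Figure D2:**
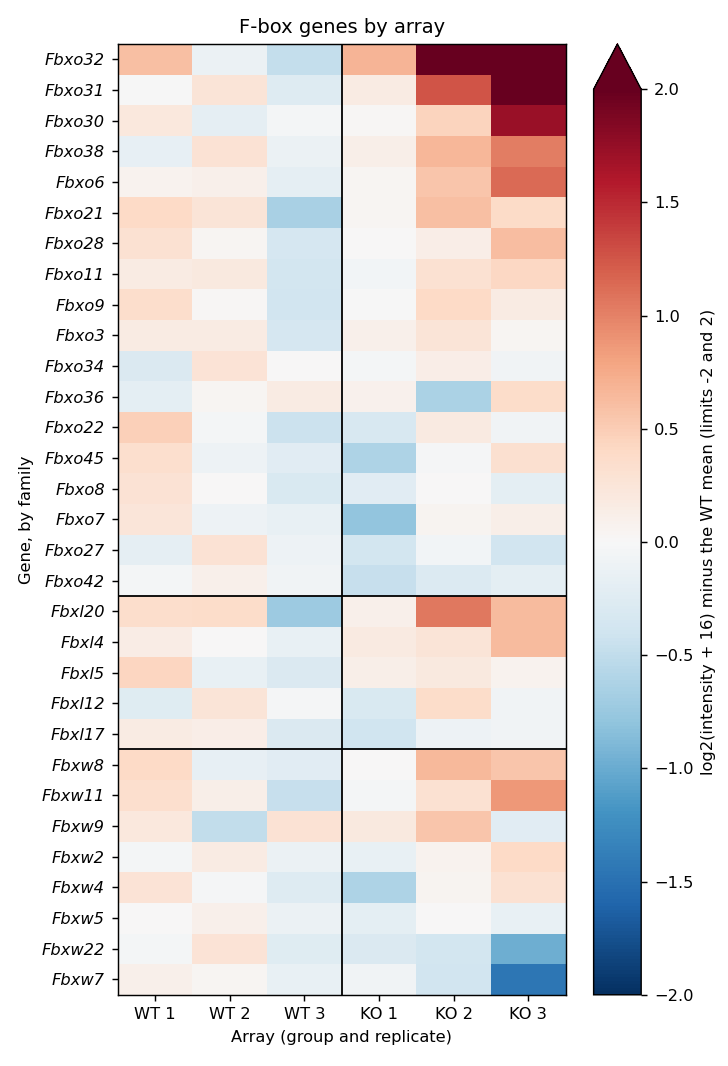
Distance of each array from the WT mean on the log2(intensity + 16) scale for the 31 F-box genes with a mean of at least 32, grouped as Fbxo, Fbxl and Fbxw (rows) over the 6 arrays (columns). Red is above and blue below the WT mean, values past 2 share the darkest red, and the strongest red lies in Fbxo32 in KO replicates 2 and 3 and in Fbxo31 and Fbxo30 in KO replicate 3.

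Of the Fbxl genes, Fbxl20 had the largest difference. Fbxl20 is known to target Vps34, the lipid kinase that starts autophagosomes. It read 61.1, 62.5 and 20.7 in WT and 48.7, 109.4 and 78.1 in KO at 1418419_at (fold 1.51, interval 0.826 to 2.76, adjusted p = 0.696). At 1456378_s_at it read 33.7, 21 and 16.9 in WT and 25.1, 83.6 and 84 in KO (fold 1.89, interval 1.03 to 3.49, adjusted p = 0.580). KO replicates 2 and 3 were above all WT arrays at both, and KO replicate 1 was inside the WT range. Probe set 1452826_s_at had a fold of 1.38, and the dim 1442464_at, at 16.5 to 28.3, had a fold of 0.934.

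Fbxl4, a mitochondrial protein that restrains mitophagy, was higher in every KO array, at 50, 53.7 and 74.5 against 48.4, 42.3 and 36.7 in WT. The fold was 1.28 with an interval of 0.975 to 1.68 (adjusted p = 0.608). Fbxl5, the iron sensor that degrades the iron regulatory protein Ireb2, read 157.2, 99.2 and 89.3 in WT and 122.5, 130.2 and 118.4 in KO, a fold of 1.09 with overlap. Fbxl12 had a fold of 0.998. Fbxl21, which acts on cryptochromes, was dim, at 1.5 to 11.8 in WT and 1.3 to 22.4 in KO.

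Fbxl17, a quality-control ligase for BTB proteins, was described by 2 probe sets of similar brightness. At 1452860_at the values 114.3, 111.5 and 79 in WT and 72.3, 92.3 and 94.9 in KO overlapped (fold 0.876). At 1430241_at the KO values 76.4, 44.6 and 55.3 were all below the WT values 99.8, 84.1 and 92 (fold 0.683, interval 0.508 to 0.919, adjusted p = 0.552). Fbxl15, a ligase for Smurf1, was higher in every KO array at very low levels, with 3.2, 4 and 3.3 in WT and 4.7, 14.3 and 14.6 in KO.

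Fbxw7, the receptor for cyclin E, MYC and Notch, had the lowest fold among the 67 genes. It read 81, 76.8 and 65.7 in WT and 69.9, 53.2 and 17 in KO at 1424986_s_at (fold 0.644, interval 0.365 to 1.13, adjusted p = 0.654). At 1451558_at it read 93.1, 63.2 and 52 in WT and 64.6, 42.9 and 21.6 in KO (fold 0.672, interval 0.404 to 1.12, adjusted p = 0.654). In both, KO replicate 1 was inside the WT range and KO replicates 2 and 3 were below it, so the arrays in which Fbxw7 was low are those in which Fbxo32 was high. RefSeq lists 3 starts for Fbxw7, whose windows hold 68.0%, 28.8% and 45.6% G and C, and which of them the probe sets read is not known here.

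Fbxw11, or beta-TrCP2, marks beta-catenin and the NF-kappaB inhibitor IkB for breakdown. Its brightest probe set, 1437468_x_at, a type that can also read related transcripts, gave 323.6, 275.2 and 180.3 in WT and 246.1, 315.1 and 473.8 in KO (fold 1.30, interval 0.802 to 2.10). At 1425461_at all KO values, 40, 51.4 and 60.1, were above the WT values, 35.8, 36.6 and 28.5, with a fold of 1.33 (interval 1.03 to 1.73, adjusted p = 0.564). Fbxw8, a partner of Cul7 in the breakdown of Irs1, read 123.1, 79 and 74.2 in WT and 90.1, 150.1 and 139.7 in KO, with overlap (fold 1.32, interval 0.886 to 1.97).

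Fbxw9, Fbxw2, Fbxw4 and Fbxw5 overlapped between the groups, with folds of 1.13, 1.08, 0.940 and 0.926. Fbxw5 had narrow ranges, 164.8 to 193.9 in WT and 154.4 to 181.2 in KO. The Fbxw family also holds a mouse cluster of 15 genes side by side, of which 9 were measured. All of these except Fbxw22 and Fbxw16 had a mean below 16. Fbxw22 was lower in every KO array, at 44.9, 41.4 and 22 against 56.6, 74 and 47 in WT (fold 0.686, interval 0.471 to 0.998, adjusted p = 0.583). Fbxw16 overlapped at its brighter probe set, while at 1439694_at it read 24.3, 12.8 and 12.3 in WT and 7.1, 5.8 and 4.6 in KO. Genes of such a cluster are alike in sequence, so the probe sets may read each other's transcripts.

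**Figure D3:**
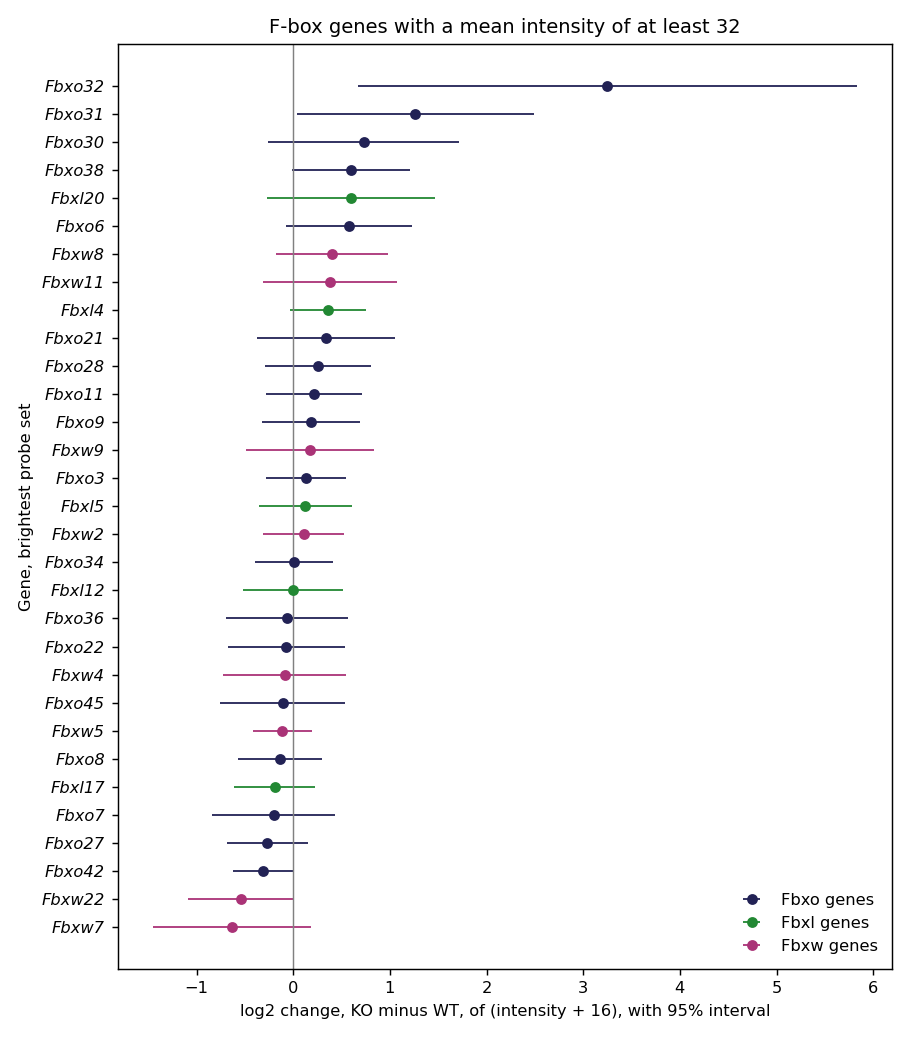
Fitted log2 change, KO minus WT, of (intensity + 16) with its 95% interval for the 31 F-box genes with a mean of at least 32 at their brightest probe set, coloured by family. Fbxo32 lies farthest to the right at 3.25 with the widest interval, Fbxo31 and Fbxo30 follow, Fbxw7 is lowest at -0.64, and most intervals include 0.

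Over the family as a whole the groups lay close together. The median log2 change of the 67 genes was -0.0026 (fold 0.998), beside -0.017 (fold 0.988) over all 18193 genes, with 33 higher and 34 lower. For the 31 genes with a mean of at least 32 it was 0.12 (18 higher, 13 lower), beside 0.0080 over the 7292 genes at that level. Without Fbxo32, Fbxo31 and Fbxo30, the other 28 had a median of 0.059. By family, the medians of the bright genes were 0.16 for the 18 Fbxo genes, 0.12 for the 5 Fbxl genes and 0.010 for the 8 Fbxw genes.

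A change of at least 1.5-fold was reached upward by 5 of the 31 bright genes (background 7.78%), Fbxo32, Fbxo31, Fbxo30, Fbxo38 and Fbxl20, and downward by 1, Fbxw7 (background 6.99%). All KO arrays were above all WT arrays for 2 of the 31, Fbxo32 and Fbxl4 (background 5.16%), and below them for 2, Fbxo42 and Fbxw22 (background 10.2%). Over all 67 genes these counts were 3 (background 4.51%) and 4 (background 8.34%), and over the 115 probe sets 8 (background 5.02%) and 7 (background 7.29%). KO replicate 3 was the highest array for 12 of the 31 (38.7%), against 32.8% of all genes at that level, and WT replicate 1, the brightest array, for 7 (22.6%), against 40.8%. The median distance of the 31 genes from the WT mean, on the log2 scale, was -0.036, 0.19 and 0.30 in KO replicates 1, 2 and 3. The same over all genes at that level was -0.14, 0.10 and 0.075.

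Of 13 F-box genes with 2 or more probe sets at 32 or above, all 13 had these probe sets on the same side of 0. The other 36 genes were dimmer, 11 with a mean of 16 to 32 and 25 below 16. Their log2 changes ran from -0.46 to 0.47, with 15 higher and 21 lower, and those below 16 read 0.3 to 25.1 in any array. Among the dim genes were Fbxo5 and Fbxo43, inhibitors of the anaphase-promoting complex in dividing cells and eggs, and Fbxo15, a gene of embryonic stem cells.

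Partners, regulators and substrates of the F-box proteins were followed through 7 lists, with 59 of 64 genes measured. By limma over all probe sets or in the filtered test, 0 of the 59 passed (background 0.00888% and 0.351%). At an unadjusted p under 0.05 there were 9 higher (background 3.54% of genes) and 6 lower (background 6.29%). The single list of regulators and substrates, 12 genes chosen with earlier results known, gave 6 of the 9 higher and 1 of the 6 lower. In the core, Skp1 read 430.5, 427.7 and 321.6 in WT and 464.8, 566.9 and 668.9 in KO, with no overlap (fold 1.42, interval 1.04 to 1.93, adjusted p = 0.564). The scaffold Cul1 read 125, 118.5 and 103.3 in WT and 106.4, 143 and 313.7 in KO, where only KO replicate 3 stood far from the rest (fold 1.42, interval 0.795 to 2.52). Rbx1 was at 1.2 to 8 in all arrays, and its fold is not given.

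Ubiquitin-conjugating enzymes that work with SCF ligases went both ways, 3 of 7 higher and 4 lower. Ube2g1 read 445.4, 409 and 372.2 in WT and 414.7, 687.4 and 1410.1 in KO (fold 1.78, interval 0.917 to 3.47), with KO replicates 2 and 3 above the rest. Cdc34, the classical SCF partner, read 1095.4, 969.9 and 816.4 in WT and 820.2, 718.8 and 667.6 in KO, with KO replicate 1 just inside the WT range (fold 0.772, interval 0.597 to 1, adjusted p = 0.583).

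Genes for attaching NEDD8 to cullins, the step that activates the ligase, had a lower mean in KO in 9 of 10 cases, none past the test, with a median log2 change of -0.14. Over all genes 46.8% were higher. WT replicate 1 was the highest array for 7 of the 10, against 36.1% of all genes. The list's median distance from the WT mean was 0.25, 0.047 and -0.25 in WT replicates 1, 2 and 3. In KO replicates 1, 2 and 3 it was -0.35, -0.24 and -0.0064, so the list did not part the groups. Dcun1d2, which helps transfer NEDD8, read 233.4, 196.8 and 158 in WT and 147.8, 95.1 and 90.8 in KO (fold 0.595, interval 0.415 to 0.853, adjusted p = 0.529), so every KO array was below every WT array. Rnf7, a relative of Rbx1, was likewise lower in every KO array (fold 0.734, interval 0.552 to 0.976). Of the exchange and deneddylation genes (Cand proteins and the COP9 signalosome) 5 of 13 were higher and 8 lower, with a median of -0.16. The medians were -0.17 for the 7 F-box proteins that carry other names, Skp2 and Btrc among them, and 0.0073 for the 6 other cullins. Kdm2a, an F-box histone demethylase, was higher in every KO array, at 73.9, 77.8 and 101.1 against 64.6, 62.4 and 48.2 in WT (fold 1.35, adjusted p = 0.564). Senp8, which processes NEDD8, was lower in every KO array, at 13, 17.5 and 18.5 against 29.2, 32.9 and 19.

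Regulators and substrates known for muscle F-box ligases, listed together with the wasting ligase gene Trim63, held the larger differences. Of these 12 genes 10 were higher, where 46.8% of all genes were. Because the list was chosen with earlier results of these data known, this count is no support. Nr3c1 and Ireb2, counted among the 10, hardly differed, with folds of 1 and 1.01. Of the FoxO genes, which switch on Fbxo32, the 3 measured (Foxo1, Foxo3 and Foxo4) had a higher mean in KO, and Foxo6 was not analysed here. Foxo1 read 76, 71.2 and 62.5 in WT and 101, 163 and 248.9 in KO, with no overlap (fold 2.07, interval 1.29 to 3.32, adjusted p = 0.524). At Foxo3 the values were 86.1, 37.8 and 31.4 in WT and 72.1, 182.4 and 501.1 in KO, with KO replicate 1 inside the WT range (fold 3.26, interval 1.15 to 9.28, adjusted p = 0.564). Klf15, a glucocorticoid-induced factor, read 105.2, 84.1 and 41.1 in WT and 104.8, 253.9 and 508.3 in KO (fold 2.91, adjusted p = 0.562), while the glucocorticoid receptor gene Nr3c1 had a fold of 1. Trim63, the wasting ligase MuRF1, which is not an F-box protein, read 468.2, 408 and 285.7 in WT and 512.1, 1825.4 and 6884.7 in KO (fold 4.77, adjusted p = 0.564).

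Foxo1, Foxo3, Klf15 and Trim63 each had KO replicate 3 highest and KO replicate 2 next, as Fbxo32 did. Without KO replicate 1 the filtered test passed 8 pathway genes, Foxo1, Foxo3, Klf15, Trim63, Cry2, Ube2g1, Irs1 and Dcun1d2, where 6.06% of all probe sets tested passed. Without KO replicate 3 it passed 3, Foxo3, Klf15 and Trim63, where 1.44% of all passed. Irs1, the insulin receptor substrate that Fbxw8 and Fbxo40 target, went the other way, with 560.6, 470.7 and 420 in WT and 355.9, 225.7 and 188.4 in KO and no overlap (fold 0.532, interval 0.356 to 0.793, adjusted p = 0.524). For Myod1 and Eif3f, targets of Fbxo32, the values overlapped between the groups, and so did those of Ireb2, the target of Fbxl5. These are RNA levels, and the proteins on which the ligases act were not measured. Cry1 was dim but higher in every KO array, at 13.7, 25.9 and 22.3 against 8.8, 9.6 and 11.5.

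**Figure D4:**
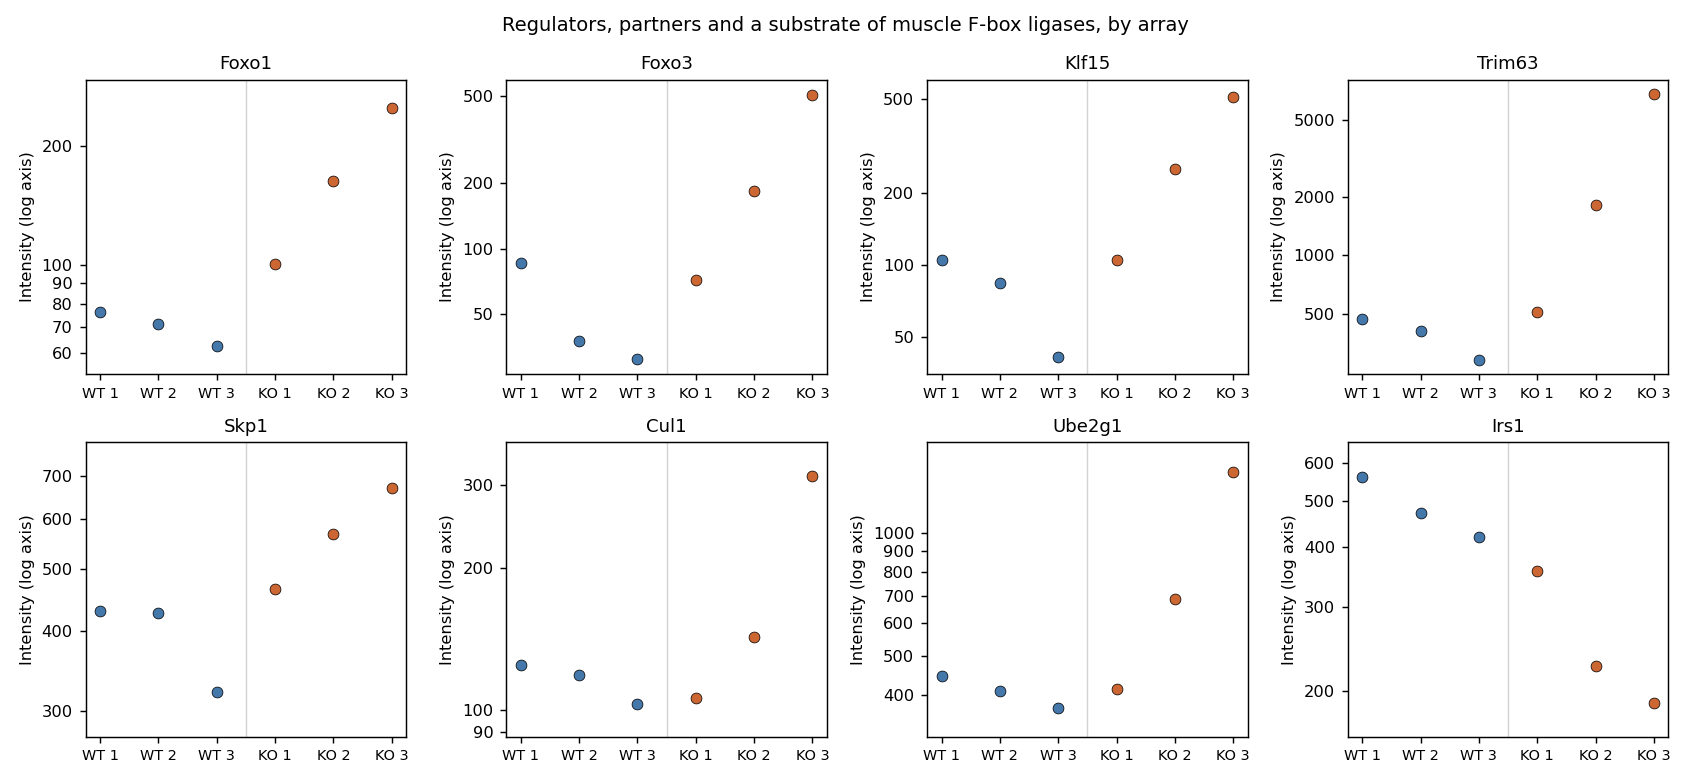
Intensity (log axis) in the 3 WT (blue) and 3 KO (orange) arrays for 8 genes. They are regulators, partners and a substrate of muscle F-box ligases, and Trim63. Foxo3, Klf15 and Trim63 were highest in KO replicates 2 and 3, with Trim63 at 1825.4 and 6884.7 there, and Irs1 was lowest in these arrays, at 225.7 and 188.4.

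Markers of other cells in the tissue also differed between the arrays, and their part in these results was not tested. The adipocyte list, with 5 of 6 markers measured, had a lower mean log2 value in KO for all 5. Its summed intensity was 999.7 to 1688.6 in WT and 318.6 to 512 in KO. Cidec was nearly equal, with mean intensities of 73.7 in WT and 75.4 in KO. Adipoq overlapped between the groups, at 293.9 to 606.9 in WT and 131 to 339.5 in KO. Ucp1 did not, at 570.3 to 877.2 in WT and 129.9, 5.9 and 2.3 in KO, and it held more of each WT sum than any other adipocyte marker. The fibroblast list summed to 7376.5 to 12865.7 in WT and 3609.6 to 7622.9 in KO, with KO replicate 3 lowest. The tendon list summed to 289.1 to 563.3 in WT and 203.1 to 268.4 in KO, and the smooth muscle list to 583.6 to 897.8 and 181.4 to 397.7. Most of the smooth muscle sum was Acta2, at 802, 585 and 539.2 in WT and 340.2, 255.1 and 105.4 in KO. The other smooth muscle markers, Myh11, Tagln and Cnn1, overlapped between the groups, with Tagln higher on average in KO. Sums overlapped between the groups for the endothelial, macrophage, Schwann and erythroid lists. The satellite cell sum was 53.4 to 75.5 in WT and 79.2 to 82.3 in KO. Of its 3 markers only the dim Myf5 had no overlap, at 5.1 to 6.6 in WT and 15.9 to 21.2 in KO. In signs of RNA quality, the log2 ratio of 3′ to 5′ control probe sets was -0.268 in WT and -0.264 in KO for Gapdh, and -0.342 and -0.335 for Actb (exact two-sided permutation p = 1.0 for each, n = 3 each, where 0.1 is the smallest possible).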

How the data were processed

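RNA from each muscle was biotin-labelled and hybridized by the array maker's standard protocol, per the labels. The deposited values are linear intensities with 1 decimal. No source used here gives the software, scaling or background correction behind them, and 0 sample columns were left unused. After 64 control probe sets were removed, log2(intensity + 16) was compared between KO and WT with limma 3.58.1 (lmFit and eBayes, two-sided) in R 4.3.3. No further normalization was applied, and p-values were adjusted by Benjamini-Hochberg over 45037 probe sets at a threshold of 0.05. Intervals are at the 95% level. The number of arrays limits the precision.

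Genes were named from the platform annotation, and all 67 F-box symbols matched RefSeq. A gene is represented by its probe set with the highest mean. The members and lists were chosen with earlier results of these data known. Every F-box gene could be named. Values by array were given for a set of 21 genes with known roles (18 measured), and, among genes with a mean of at least 32, for the 8 largest changes each way and those whose groups did not overlap. Pathway genes were up to 4 per list by lowest p. Further probe sets of these genes, and Fbxl15, Fbxo44, Fbxo2, Fbxo28, Fbxw16, Foxo3, Trim63, Nr3c1, Cry2, Myod1, Eif3f and Ireb2, were added after their values were seen.

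In simulated data of 45037 probe sets, 100 were changed at each size, and only probe sets brighter than the median one were eligible. Of these the KO against WT test recovered on average 10.8 at 2-fold and 58 at 4-fold, with 1.6 false calls. Recovery of changes in dimmer probe sets was not tested. Replicate numbers recur in both groups, and the labels state no pairing. Deviations of same-numbered arrays correlated at -0.0569 to 0.0263, against -0.0441 to 0.0968 for arrays with different numbers. Such values over all probe sets, many of them dim, cannot decide whether the mice were paired, and the main test was unpaired. Alternatives were quantile normalization, median centring, testing only probe sets brighter than the median one, offsets of 1 and 64, a trended and robust variance, the replicate block, each array left out, a threshold of 0.01 and averaging all probe sets per gene. Combining the filter with other settings was chosen after seeing the data.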

Additional observations from a re-analysis of the deposited data

How the results depend on the processing

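The count of F-box probe sets passing was 0 in every alternative fitted over all probe sets, the replicate block (0) and a threshold of 0.01 included, and 0 with the filter alone; the same holds for the 59 pathway genes. With the filter and 1 array left out the F-box count ranged from 0 to 8. It was 8 without KO replicate 1, namely 3 of Fbxo32, 2 of Fbxo31, 2 of Fbxo30 and 1 of Fbxl20, but 1 of Fbxo30 (1453136_at) was above the filter level only in KO, which leaves 7. It was 3 without KO replicate 3, all of Fbxo32. Pathway genes passing were then 8 and 3. The family's median log2 change ranged from -0.020 to 0.10 with 1 array left out.

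The log2 change of Fbxo32 ranged from 2.20 without KO replicate 3 to 4.54 without KO replicate 1, that of Fbxo31 from 0.71 to 1.81 and that of Fbxo30 from 0.23 to 1.08. For Fbxw7 it was -0.23 without KO replicate 3 and -0.92 without KO replicate 1. Many of the 25 genes followed were chosen for large changes or groups without overlap in these same data, so a kept direction is no support for them. Of the 25, 17 kept their direction in every alternative. The other 8 turned when 1 array was left out, and the cause was not tested. Their ranges were -0.20 to 0.37 for Fbxl21 (-0.11 without WT replicate 3), -0.017 to 0.34 for Fbxl5, -0.29 to 0.17 for Fbxo22 (0.056 without KO replicate 1), -0.28 to 0.061 for Fbxo25, -0.036 to 0.22 for Fbxo3, -0.36 to 0.089 for Fbxo7, -0.29 to 0.0093 for Fbxo8 and -0.0048 to 0.36 for Fbxo9. Low signal limits the 25 genes with a mean below 16.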
